A study of Mus musculus with 2 samples.

Results

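H3K36me3, the trimethylated form of lysine 36 of histone H3, was mapped by ChIP-seq in mouse KCs (keratinocytes, the main cells of the epidermis), and the peaks that the deposited annotation placed in a 3′ UTR are described here. They are the 4244 of 45575 peaks (9.31%, exact binomial 95% interval 9.05 to 9.58%) whose annotation begins with the 3′ UTR class, and they hold 19684205 of the 180594985 bases inside peaks (10.9%). The KCs were primary cells taken from the skin of 10-week-old C57BL/6 mice of the genotype *Setd2* fl/fl, in which the gene of the methyltransferase is flanked by loxP sites but no Cre had deleted it, so *Setd2* was intact in every sample used. Dispase was used to lift off the epidermis, and trypsin to free the KCs from it. 1 ChIP library and 1 input library were made, and the input library was not analysed here. There was no replicate and no second condition, the sources used here do not give the number of mice behind the library, and the labels and the methods give different fixation times. Intervals below therefore cover counting error only, and peaks and genes are not replicates of the KCs.

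SETD2 places H3K36me3 while it travels with elongating RNA polymerase II, so the mark lies along the bodies of transcribed genes and is usually denser towards their 3′ ends. A 3′ UTR is the part of the last exons that follows the stop codon. The nascent RNA is cut at its end, after a poly(A) signal whose usual form is AATAAA and whose commonest variant is ATTAAA, and the polymerase transcribes beyond the cut before it leaves the template. Where the tails of neighbouring genes face each other (convergent genes), polymerases arrive at the same DNA from both sides. In transcripts tagged for nonsense-mediated decay (NMD), the pathway that destroys RNA with an early stop codon, annotation calls every exonic base after the early stop 3′ UTR, even where other transcripts of the gene read those bases as codons.

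For each peak of the class, the gene under it (the host) was taken as the protein-coding gene of GENCODE vM21 whose 3′ UTR shares most bases with the peak. A host was found for 4239 peaks, on 3155 genes. The remaining 5 lay on the 3′ UTRs of polymorphic pseudogenes: *Serpinb10*, *H2-T10*, *Atp10d*, *Oas1b* and *Slc22a13b-ps*. 155 peaks touched the 3′ UTRs of 2 protein-coding genes and 1 touched those of 22, the γ-protocadherin genes that share their last exons. The strands were even, with 2137 peaks on plus-strand hosts and 2102 on minus-strand hosts.

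The sequences below show where the annotated ends lie that the results turn on. They are windows of 30 bases of GRCm38.p6 (RefSeq assembly), each written along the strand of its gene with the last AATAAA before the annotated gene end, or ATTAAA for *Cep68*, in capitals. The first 7 belong to hosts with the highest, widest or otherwise described peaks, and the last 4 to convergent pairs spanned by 1 peak.
*Sdc4* (chr2:164424250-164424279, minus strand): agatAATAAAacctggtactttctagattg
*Naca* (chr10:128048601-128048630, plus strand): cactAATAAAgttgtggcttcttgttggat
*Fat2* (chr11:55250609-55250638, minus strand): taacAATAAAtatctttttttttactgtta
*Cd44* (chr2:102811140-102811169, minus strand): tggtAATAAAttcaatatgtagccgaaaat
*Trp63* (chr16:25892065-25892094, plus strand): taaaAATAAAtgaaaatacactgagaaatt
*Rictor* (chr15:6800372-6800401, plus strand): tgttAATAAAatgtacttaaaattcttaaa
*Lyst* (chr13:13778773-13778802, plus strand): tggaAATAAActtgctaaaaatagacttaa
*Cep68* (chr11:20227039-20227068, minus strand): taaaATTAAAgtgcttggcaccatttcatc
*Rab1a* (chr11:20226824-20226853, plus strand): tcacAATAAAatcatagtttactttgtatt
*Abr* (chr11:76416749-76416778, minus strand): tgttAATAAAaaaattgcaaagcctcaaca
*Timm22* (chr11:76416269-76416298, plus strand): ctagAATAAAcagtgtccaatggcttcagc
The signal ends 23 bases before the annotated end of *Sdc4*, 27 before that of *Naca*, 28 before that of *Trp63* and 21 before that of *Lyst*. Over the whole class, AATAAA or ATTAAA, read on the gene's strand with overlap between motifs allowed, stood in the last 50 bases of 1179 of the 1446 hosts whose end lies inside a peak of the class (81.5%). The share was 78.9% of the 1428 other hosts with a peak on the 3′ UTR of a protein-coding transcript and 71.9% of all 21938 protein-coding genes. The windows are a description of the annotated ends and say nothing of which site the KCs used.

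Peaks of the 3′ UTR class were wider than the median peak of the table. Its median width was 2922.5 bp, with quartiles of 1324 and 5918.5 bp and a range of 248 to 61275 bp, against a median of 1614 bp over all peaks, 2413 bp in the exon class and 779 bp in the downstream class, the 341 peaks placed after a gene. The 5′ UTR and promoter classes had larger medians, of 3693 and 3014 bp. 484 peaks of the class (11.4%) were wider than 10000 bp, close to the 10.1% of all peaks, and they held 39.8% of its bases. At the other end 289 (6.81%) were under 500 bp wide.

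Fold enrichment, the deposited ratio of ChIP signal to background for each peak, ran from 2.28 to 5.46 in the class with a median of 3.03, against a median of 2.90 over all peaks, 2.96 in the exon class and 2.75 in the downstream class. It reached 3 in 2289 peaks of the class (53.9%), against 40.0% of all peaks, 44.7% of the exon class and 19.1% of the downstream class, and against 61.5% of the 5′ UTR class and 54.4% of the promoter class. A P below 1e-05 was given for 662 (15.6%), against 12.8% of all peaks, 9.01% of the exon class and 22.2% of the promoter class. The classes were not tested against each other, because the peaks come from 1 library and neighbouring peaks can lie on 1 gene. In bulk chromatin, fewer cells with a marked gene and less mark per cell cannot be told apart.

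**Figure D1:**
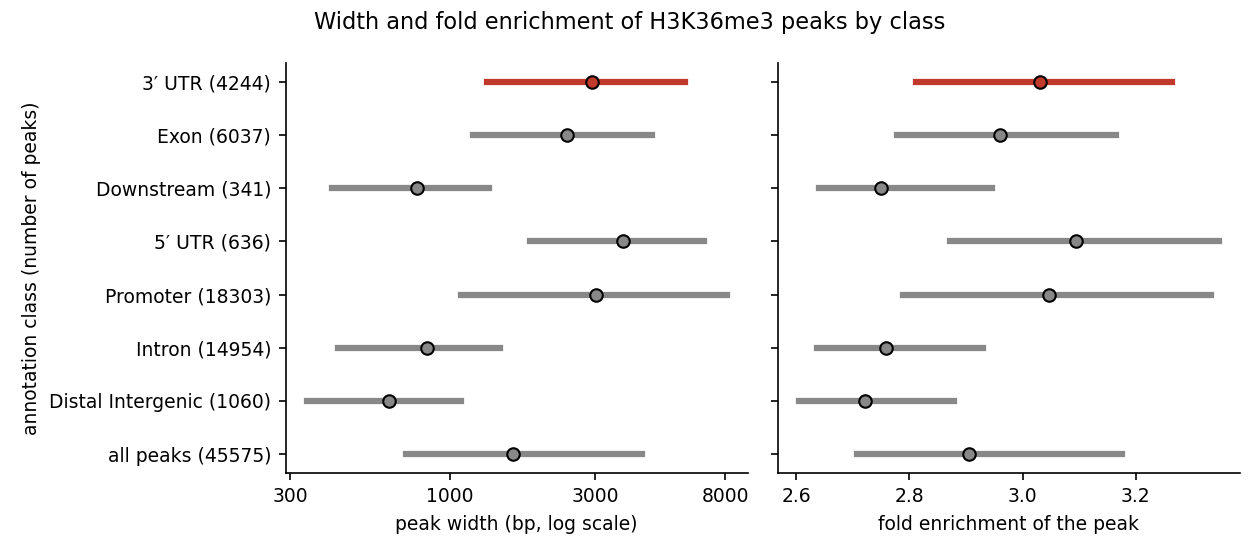
Peak width in bp on a log axis (left) and fold enrichment (right) by annotation class, with points at the median and bars from the lower to the upper quartile, and the number of peaks in brackets. The 3′ UTR class, in red, has a median width of 2922.5 bp and a median fold enrichment of 3.03, against 1614 bp and 2.90 over all peaks.

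By bases, a peak of this class was mostly not 3′ UTR. Of the bases in the hosted peaks, 60.0% lay in introns of the host, 20.1% in 3′ UTR that no transcript of the host reads as coding, 7.55% in coding sequence, 1.46% in other exons and 11.0% outside the host. The median peak held 647 bp of 3′ UTR. From the side of the gene, the median host had 55.1% of its 3′ UTR inside peaks of the class.

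Hosts were long genes with several peaks. Their median length was 49018 bp, against 25221 bp for the 11268 protein-coding genes with any peak on the body. Counted per peak of the class, the median number of peaks on the host was 6. Of the genes with a peak, 28.0% hosted a peak of the class. By gene length the share was 1.75% under 5000 bp, 15.2% from 5000 to 20000 bp, 30.0% from 20000 to 50000 bp, 45.7% from 50000 to 100000 bp and 53.2% above. The class leaves out, by its definition, any peak within 3000 bp of a transcription start site (TSS), and the nearest deposited distance of a hosted peak to the TSS of its assigned transcript was 3001 bp. A short gene that is marked from its first kilobases to its end is therefore listed as promoter. Peaks of the promoter class covered 5173 of the 6844 gene ends that lay inside any peak (75.6%), and peaks of the 3′ UTR class covered 1577 (23%). The 3′ UTR class is thus a selection of marked gene ends and not the whole of them.

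The highest fold enrichment fell on zinc-finger genes. The peak on *Zfp386* (chr12:116053343-116061208), a gene of the zinc-finger family of DNA-binding proteins, had a fold enrichment of 5.46, a width of 7866 bp and stopped 2152 bp before the gene end. *Zfp955a* followed at 4.74 over 1690 bp, *Zfp617* at 4.71 over 5718 bp and *Zfp867* at 4.47 over 6047 bp. Of the other 4 of the 8 highest, *Naca*, which encodes a subunit of the ribosome-bound nascent polypeptide-associated complex, had 4.65 and *Sdc4*, the cell-surface proteoglycan syndecan-4, had 4.51. *Nbeal1* had 4.71 on a peak of 1617 bp that lies 18094 bp before the end of the gene, in the 3′ UTR of NMD transcripts alone, and the predicted gene *Gm45871* had 4.47.

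The widest peaks lay on epithelial genes among others. The widest of the class spanned 61275 bp (chr14:103555022-103616296) of *Scel*, the gene of sciellin, a precursor of the cornified envelope, with a fold enrichment of 3.53. The next were 55995 bp on *Fat2*, an atypical cadherin, at 3.75, and 51806 bp on *Cd44*, the hyaluronan receptor, at 3.56. *Erbin*, an adaptor of the basolateral membrane, carried 50361 bp at 3.31. *Trp63* (chr16:25853799-25894554), the transcription factor that defines stratified epithelia, carried 40756 bp at 4.0, the highest value among the 8 widest. *Rictor*, a defining subunit of mTORC2, carried 40101 bp at 3.40, and *Fam120a* and *Btaf1* 44884 and 39828 bp. All of these except the peak on *Fam120a*, which stops 898 bp short, passed the end of their host.

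Where the peaks stop relative to the gene end was read from the outermost annotated end of the host. 1446 hosted peaks (34.1%, exact binomial 95% interval 32.7 to 35.6%) covered that end. Another 535 (12.6%) stopped within 1000 bp before it, 856 (20.2%) stopped 1000 to 5000 bp before it and 1402 (33.1%) farther away. None could begin past the end, because a host was defined by 3′ UTR bases inside the peak. The peaks that covered the end were wider, with a median of 4305.5 bp against 1985 bp in those that stopped within 1000 bp, and 65.2% of them had a fold enrichment of at least 3, against 47.3%. A wider peak meets an end more easily, so position and width do not stand apart here. Counted per peak, hosts whose end was covered were also shorter, with a median length of 38238 bp against 95740 bp where peaks stopped over 5000 bp before the end.

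Most peaks far inside the gene rested on NMD transcripts. For 1005 hosted peaks (23.7%, 22.4 to 25%) on 601 hosts, every 3′ UTR base under the peak came from transcripts tagged for NMD. Of these, 965 (96.0%) held coding bases of the host, counted over all its transcripts and anywhere in the peak. That share was 73.8% for peaks on a 3′ UTR of a protein-coding transcript. The 1005 NMD-only peaks held a median of 145 bp of 3′ UTR, 8 of them covered the gene end, and their median stop was 23727 bp before it. Of the 1402 peaks that stopped over 5000 bp short, 907 (64.7%) were of this kind. The 3234 peaks on a 3′ UTR of a protein-coding transcript held a median of 941.5 bp of 3′ UTR, 44.5% of them covered the gene end and their median stop was 346 bp before it.

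The hosts with most peaks of the class were of this kind too. *Clasp2*, which encodes a microtubule plus-end protein, hosted 13, of which 10 rested on NMD transcripts alone. Their widths ran from 523 to 11090 bp and their fold enrichments from 2.58 to 3.36, and only the most downstream one passed the gene end, by 2578 bp. *Brwd3*, a bromodomain gene on the X chromosome, hosted 10, of which 9 were NMD-only, and *Cdk5rap2*, a centrosomal gene, 10, of which 9 were. *Atp8a1* hosted 8, and *Agtpbp1*, *Myo5a*, *Rpgrip1l* and *Tnik* 7 each. In all, 218 hosts had 3 or more peaks of the class, and of their 840 peaks 547 (65.1%) were NMD-only and 73 covered the gene end. 2475 hosts had 1 and 462 had 2. On these hosts most peaks of the class thus lay on exons of NMD transcripts and not at the gene end.

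Beyond the gene end the mark ran on for about 1 kb. Among the 1446 covering peaks the median reach past the end was 1045 bp (order-statistic interval 979 to 1115 bp), with quartiles of 480 and 1914 bp. The reach exceeded 500 bp in 1067 (73.8%), 1000 bp in 748 (51.7%), 2000 bp in 328 (22.7%), 5000 bp in 43 (2.97%) and 10000 bp in 7. Along the 3234 peaks with a protein-coding transcript, the share overlapping a 200 bp bin was highest, at 50.6%, 1000 to 1200 bp before the end. It was 44.5% in the first bin past the end, 23% in the bin that starts at 1000 bp, 10.1% at 2000 bp and 1.33% at 5000 bp. The reach is limited by the same TSS rule, since a peak that runs to within 3000 bp of the next start is classed as promoter. Peaks of the promoter class that cover a gene end had a median reach of 1794 bp, against 1130 bp for the 3′ UTR class when every covered end of any gene is counted.

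Hosts were set apart by the next protein-coding gene past their end. 3113 hosted peaks (73.4%) had no protein-coding neighbour within 5000 bp past the host's end, against 51.0% of the genes with a peak. Convergent neighbours stood beside 805 (19.0%, 17.8 to 20.2%): 488 whose ends lay apart (11.5%, against 18.2% of genes with a peak) and 317 whose ends overlapped (7.48%, against 13.3%). 219 had a tandem neighbour, the next gene on the same strand (5.17%, against 11.4%). Another 102 peaks, on 92 hosts, had a host that ended inside another gene (2.41%, against 6.04%). Counted per host and not per peak, the shares were 72.2% with no neighbour, 12.6% with convergent ends apart and 7.32% with overlapping ends. They were 5.01% with a tandem neighbour and 2.92% with an end inside another gene. The class rule touches these shares unequally, because a tandem neighbour places a TSS close to the end while a convergent one places a gene end there.

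Reach was then given for each arrangement. Peaks with a tandem neighbour covered the end in 11.9% (7.90 to 16.9%), with a median reach of 664 bp and a maximum of 1219 bp. These tandem values follow in part from the class rule. The neighbour starts within 5000 bp past the end, and a peak of the class stays over 3000 bp from any TSS. Where the neighbour starts within 3000 bp, no such peak can cover the end. With no neighbour 36.2% (34.5 to 37.9%) covered it, with a median reach of 1069 bp and a maximum of 8924 bp. With convergent ends apart 35.9% (31.6 to 40.3%) did, with a median of 1160 bp and a maximum of 25212 bp. With overlapping ends 24.6% (19.96 to 29.7%) did, with a median of 1051 bp and a maximum of 21279 bp. Where the host ended inside another gene 39.2% (29.7 to 49.4%) did, with a median of 798 bp and a maximum of 21562 bp. The intervals of the 4 medians other than the tandem one overlap. The tandem interval (396 to 840 bp) overlaps those for overlapping ends (551 to 1495 bp) and for ends inside another gene (558 to 1247 bp). It lies below those for no neighbour (999 to 1142 bp) and for convergent ends apart (892 to 1456 bp). The long tail did differ in size: 102 of 1127 covering peaks without a neighbour (9.05%) passed the end by more than 3000 bp, against 28 of 175 (16.0%) with convergent ends apart, 18 of 78 (23.1%) with overlapping ends and 5 of 40 (12.5%) where the host ended inside another gene. None of these differences was tested.

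**Figure D2:**
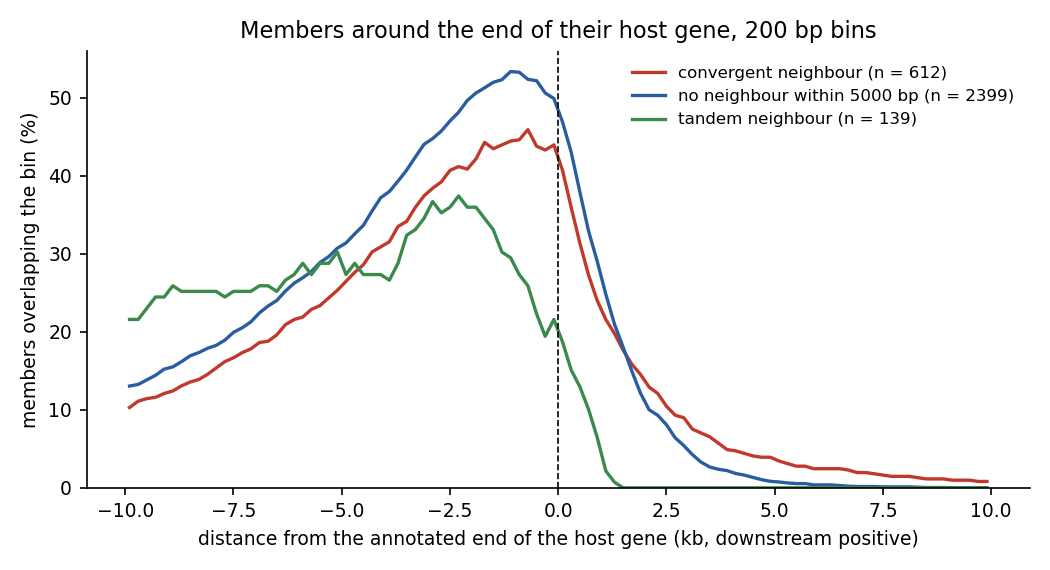
Percent of hosted peaks with a protein-coding transcript that overlap each 200 bp bin, by distance in kb from the annotated end of the host (downstream positive), for hosts with a convergent neighbour, with no neighbour within 5000 bp and with a tandem neighbour. The tandem curve ends by 1219 bp past the gene end, the maximum reach there, while the convergent curve stays above the curve without a neighbour beyond about 2 kb. The class rule, which keeps peaks over 3000 bp from a TSS, caps the tandem curve.

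**Figure D3:**
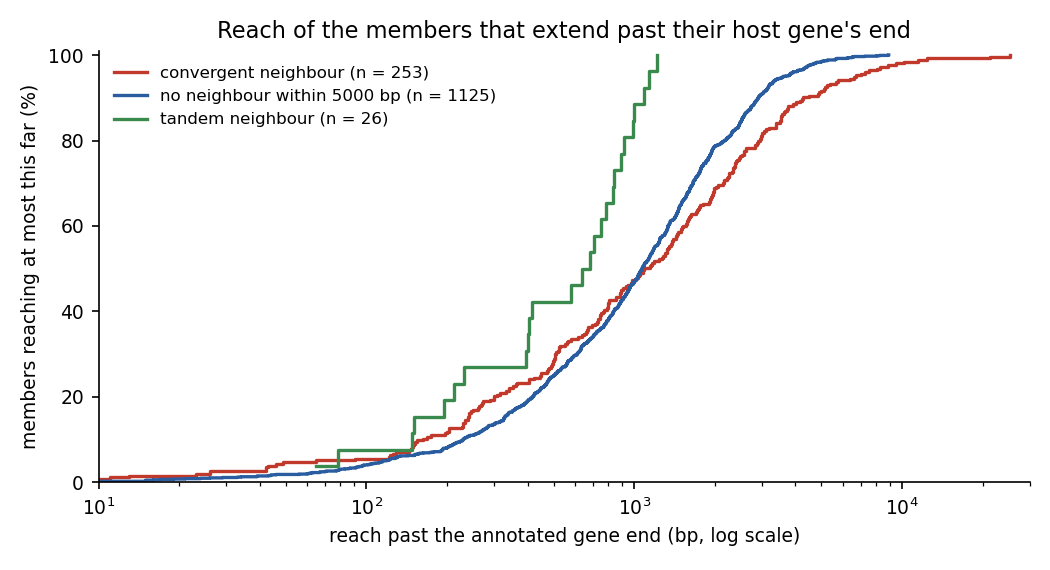
Cumulative percent of peaks by reach past the annotated gene end (bp, log axis), for peaks that extend past the end of a host with a convergent neighbour, with no neighbour within 5000 bp or with a tandem neighbour. The curves of hosts with convergent neighbours and with none cross near 1 kb, and the convergent curve carries the longest reaches, up to 25212 bp.

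The peaks that reached farthest past a gene end ran over neighbouring genes. The farthest started in *Tipin*, a gene of the replication fork protection complex, and passed its end by 25212 bp (chr9:64300215-64330636, fold enrichment 3.23) through the convergent gene *Dis3l*, an exosome nuclease whose end lies 1331 bp away. The peak on *Bbip1*, a BBSome subunit that ends inside *Pdcd4*, passed by 21562 bp. That on *Invs*, the ciliary gene of inversin, passed by 21279 bp through the overlapping end of *Tex10*. *Pagr1b* (16451 bp), *Usmg5* with *Taf5* (12444 bp), *Cep68* with *Rab1a* (11455 bp), *Cxadr* with *Btg3* (10157 bp) and *Eif2s2* (9732 bp) completed the 8. 5 of these 8 touch the 3′ UTRs of both genes of a pair placed as convergent. Those on *Bbip1* and *Pagr1b*, placed as ending inside another gene, also hold 913 bp of *Pdcd4* 3′ UTR and 126 bp of *Mvp* 3′ UTR. In such a peak the mark of the host and that of its neighbour cannot be told apart, since ChIP-seq of the mark keeps no strand.

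In all, 123 peaks touched the 3′ UTR of both convergent genes (15.3% of the 805, 12.9 to 18%), over 122 pairs: 71 on pairs with overlapping ends and 52 on pairs with ends apart. Where the ends lay apart and the peak covered the host's end, 52 of 175 (29.7%, 23.1 to 37.1%) reached the neighbour's end. The median gap between the genes was 1092 bp in those and 3360 bp in the rest. The spanning peaks had a median width of 5764 bp and a median fold enrichment of 3.14.

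The pairs with most 3′ UTR of both genes inside 1 peak included 4 with ends less than 500 bp apart. *Msl2*, of the MSL histone acetyltransferase complex, and *Ppp2r3a*, a PP2A subunit, end 283 bp apart inside a peak of 7299 bp with a fold enrichment of 3.06. *Abr* and *Timm22*, which encodes a translocase of the inner mitochondrial membrane, end 441 bp apart inside 14143 bp at 3.32. *Cep68*, a centrosomal gene, and *Rab1a*, the GTPase of transport between endoplasmic reticulum and Golgi, end 180 bp apart inside 26563 bp (chr11:20215582-20242144) at 3.36, and the signals of both printed above lie inside it. *Trappc13* and *Sgtb* end 413 bp apart inside 19192 bp at 3.14. The others were *Pigh* with *Plekhh1*, *Ube2l3* with *Ydjc*, *Fez2* with *Crim1* and *Dclre1c* with *Suv39h2*, whose annotated bodies overlap by 992 to 8689 bp.

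The gene that the deposited annotation credited with a peak was the host for 2254 of the 4239 hosted peaks (53.2%, 51.7 to 54.7%). The annotation names the gene with the nearest TSS, and a 3′ UTR lies far from its own. The credited gene was another for 1985 peaks (46.8%), and for 1814 of these it did not overlap the peak at all. These shares are given for this class alone, so they are not shown to be particular to it. Peaks that covered the gene end were credited to the host in 48.7%, and those that stopped over 5000 bp short in 65.8%. Of the 3155 hosts, 1390 (44.1%) were credited with none of the peaks on their own 3′ UTR and 308 (9.76%) with no peak of any class. Of the 123 peaks that spanned a convergent pair, 44 were credited to the host, 48 to the neighbour and 31 to neither.

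Most peaks credited to a gene other than the host went to genes that are not protein-coding. 1103 of the 1985 peaks (55.6%) did, among them 268 to processed pseudogenes, 203 to unvalidated transcripts (TEC), 197 to antisense genes, 148 to lincRNAs, 60 to miRNA genes, 47 to snRNA genes and 41 to snoRNA genes. The other 882 (44.4%) went to another protein-coding gene. The farthest was the peak on the tyrosine kinase gene *Fer*, credited to *Pja2* at a TSS 169082 bp away, and those on *Arl15*, *Nfib*, *Efna5*, *Zfat* and *Suclg2* were credited to genes that do not code for protein (pseudogenes, rRNA, snoRNA, lincRNA or TEC) whose TSS lay 139984 to 151033 bp away. Of the 8 widest peaks, that on *Scel* was credited to *Slain1*, that on *Cd44* to *Gm23731*, that on *Fam120a* to *Phf2* and that on *Rictor* to *Osmr*. The host was credited with the other 4.

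Genes without a peak of their own entered the list in this way. 281 peaks of the class were credited to 243 protein-coding genes with no peak on the body, and for 129 of these genes it was the only peak credited. Some of these genes are best known from other cell types, and the examples here were chosen after their values were seen. *Hcrtr1*, the orexin receptor, was credited with a peak of 8805 bp (fold enrichment 3.84) on *Pef1*. *Il23a*, a cytokine subunit, was credited with 2481 bp (3.56) on *Stat2*, *Cd5*, a lymphocyte surface protein, with 4280 bp (3.60) on *Vps37c*, *Icam2*, an endothelial adhesion molecule, with 21834 bp (3.67) on *Ern1*, and *Matn3*, a cartilage matrix protein, with 10432 bp (3.59) on *Laptm4a*. None of these credits is a measurement of the mark on the credited gene. Such credits are not counted here for other classes.

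The study assayed *Gng4*, which encodes a G-protein γ subunit and was taken as a PI3K/AKT gene, by ChIP-qPCR for this mark. It reported a significantly higher signal there with the H3K36me3 antibody than with IgG. The sole peak credited to *Gng4* (chr13:13774824-13779220, 4397 bp, fold enrichment 3.29) belongs to the class and lies on the last 3980 bp of *Lyst*, a gene of lysosomal traffic on the same strand. It held the entire 3′ UTR of *Lyst*, passed its end by 417 bp and stopped 4839 bp before the start of *Gng4*, whose body held no peak. The study's primers for *Gng4* are shown because they place the assay. Both matched GRCm38 at 1 site each.
Gng4 sense primer (chr13:13807645-13807664, plus strand): tctcgcgtcccccaaaggcc
Gng4 antisense primer (chr13:13807723-13807741, minus strand): aaaacctcccagtaggccc
Their amplicon of 97 bp lies inside *Gng4*, 23586 bp after its annotated start and 28424 bp past the last base of the peak. *Pik3r3*, a regulatory subunit of PI3K, also hosted a peak of the class, of 931 bp at 3.43, 2376 bp before its end, and it was credited to the neighbour *Mast2*. Among other genes that the study names, *Setd2*, *Lama4*, *Gys1*, *Thbs3*, *Itga7* and *Eif4ebp1* carried 7, 13, 2, 1, 1 and 2 peaks but none of the class, and *Fn1* carried no peak.

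**Figure D4:**
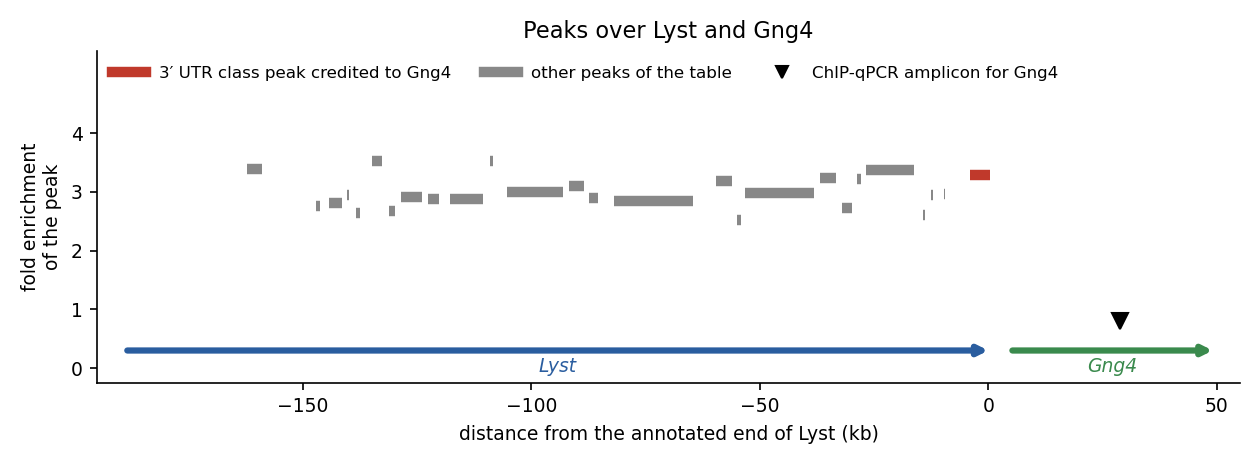
Fold enrichment of the peaks over *Lyst* and *Gng4* by distance in kb from the annotated end of *Lyst*, with bars as wide as the peaks, arrows for both genes in their direction of transcription and a triangle for the ChIP-qPCR amplicon. The peak credited to *Gng4*, in red at 3.29, lies over the end of *Lyst*, and no peak lies on *Gng4*.

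Gene families differed in how often a marked gene hosted a peak of the class, read against the 28.0% of all genes with a peak. Families above it included 14 of 26 marked Tbc1 domain genes (53.8%, 33.4 to 73.4%), which encode GTPase-activating proteins of Rab GTPases, 14 of 27 sorting nexins (51.9%, 31.9 to 71.3%), 12 of 29 kinesins (41.4%, 23.5 to 61.1%), 13 of 34 *Vps* genes (38.2%, 22.2 to 56.4%) and 72 of 204 solute carriers (35.3%, 28.7 to 42.3%). The lower bound passed 28.0% for the Tbc1 domain genes, the sorting nexins and the solute carriers, and the intervals of the kinesins and *Vps* genes include it. Importins and exportins had 5 of 22 (22.7%, 7.82 to 45.4%). Examples are *Tbc1d15*, with a peak of 4615 bp at a fold enrichment of 3.64 that passed the end by 1095 bp, *Snx18*, with 5089 bp at 3.76 and a reach of 2308 bp, and *Kif21a*, with 10201 bp at 3.45 and a reach of 351 bp. Several of these families are of long genes, with a median of 65526.5 bp for the marked Tbc1 domain genes, 44550 bp for the sorting nexins and 46610 bp for the kinesins. The share of hosts rose with length over all genes.

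The share was lower than 28.0% in other families, with an interval below it for cytosolic and mitochondrial ribosomal proteins, hnRNPs and E2 enzymes. The 28.0% is not matched for length. The median marked gene was 8062 bp long for mitochondrial ribosomal proteins and 13726 bp for hnRNPs. Of all genes with a peak that were 5000 to 20000 bp long, 15.2% were hosts. None of 78 marked genes of cytosolic ribosomal proteins hosted a peak of the class (upper bound 4.62%), although the ends of 74 lay inside some peak, and their median length was 3328.5 bp. None of 19 hnRNP genes (upper bound 17.6%) and none of 10 SR splicing factor genes (upper bound 30.8%) did, although 18 and 9 of their ends lay inside a peak. Mitochondrial ribosomal proteins had 12 of 73 (16.4%), proteasome genes 7 of 47 (14.9%, 6.20 to 28.3%) and E2 ubiquitin-conjugating enzymes 3 of 32 (9.38%). The median marked E2 gene was 30398 bp long. The ends of 16 marked E2 genes (50%) lay inside some peak, against 60.7% of all genes with a peak. The part of length in the E2 share was not tested. Keratins had 1 of 12 (8.33%, 0.211 to 38.5%), *Krt23*, with a peak of 2735 bp at 3.0. 1 of the 36 *Sprr* and *Lce* genes of the cornified envelope had a peak, *Sprr1a*, and it was of another class. Of 1135 olfactory receptor genes 2 had a peak and 1, *Olfr374*, hosted one of the class.

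**Figure D5:**
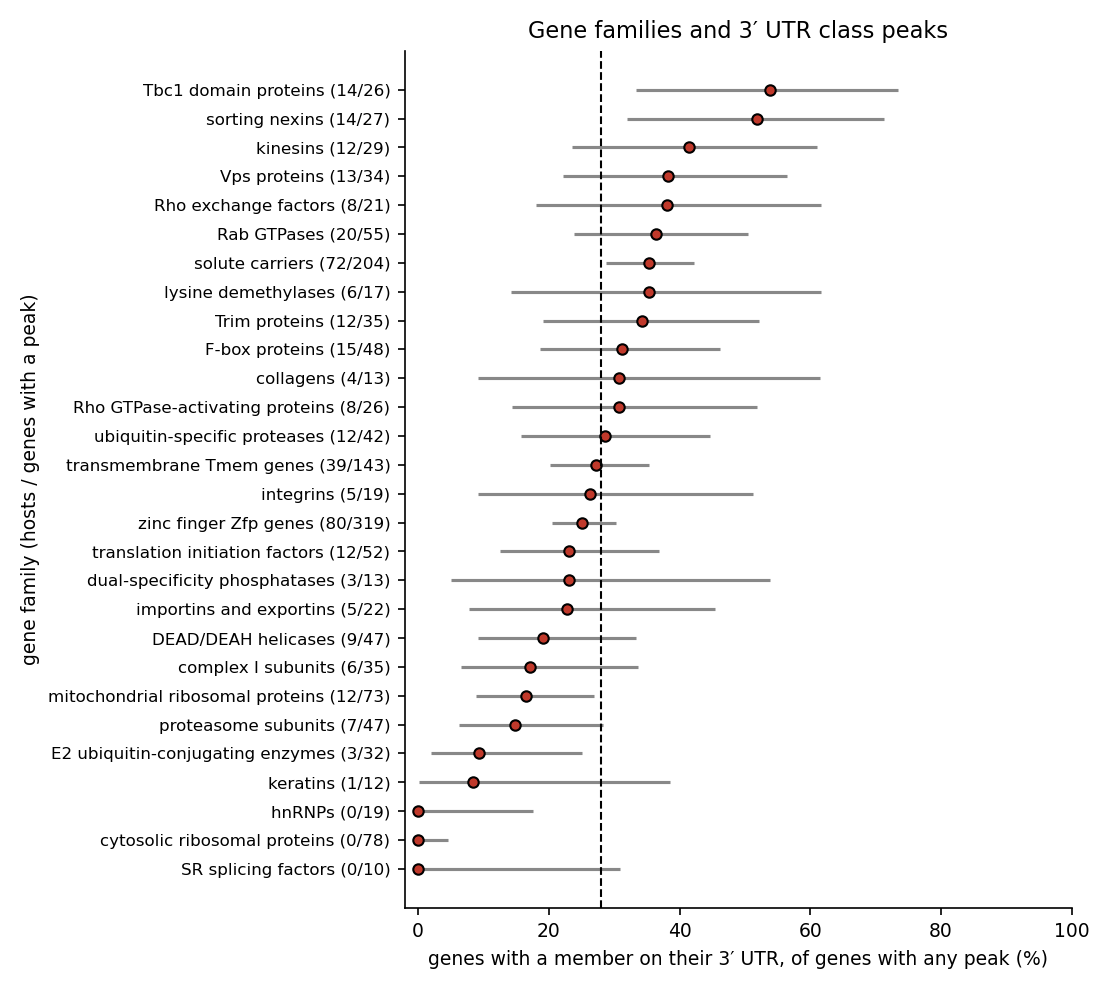
Percent of genes with a peak that host a 3′ UTR class peak, by gene family, for families with at least 10 genes with a peak, with hosts and genes with a peak in brackets. Points are the shares, bars are exact binomial 95% intervals and the dashed line is the 28.0% of all protein-coding genes with a peak. Tbc1 domain genes stand highest at 53.8%, and cytosolic ribosomal proteins, hnRNPs and SR splicing factors are at 0.

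Zinc-finger genes of the *Zfp* series did not host peaks of the class more often, with 80 of 319 marked genes (25.1%, 20.4 to 30.2%), but their peaks were higher. The 95 peaks on them had a median fold enrichment of 3.26, with quartiles of 2.90 and 3.52, against 3.03 for the other hosted peaks, with quartiles of 2.81 and 3.26. A P below 1e-05 was given for 36 (37.9%), against 15.1% of the others. They made up 11 of the 37 peaks with a fold enrichment of at least 4 (29.7%) and 2.24% of the hosted peaks. Their median share of coding bases was 23.8%, against 5.0%. The long last exon of such genes is known to code for the finger array. *Zfp119a* (5809 bp at 4.33, a reach of 1798 bp) and *Zfp217* (9873 bp at 3.74, a reach of 2380 bp) are examples. Many *Zfp* genes have close copies, and the sources used here do not say how reads that align to several places were treated, so single values among near-identical copies are uncertain.

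The machinery of 3′ ends was marked throughout. All 24 genes listed for cleavage and polyadenylation had a peak, against 51.4% of all protein-coding genes, and 7 hosted one of the class (29.2%, 12.6 to 51.1%), near the 28.0% of all marked genes. Full marking was not particular to this list: all 34 genes listed for mRNA stability and all 25 ubiquitously expressed genes also had a peak. *Cpsf2*, of the complex that reads the poly(A) signal, carried 24889 bp at 3.53 and a reach of 644 bp, and *Xrn2*, the exonuclease that ends transcription after the cut, carried 10890 bp at 3.38 and a reach of 1511 bp. *Cstf3*, *Fip1l1*, *Ppp1cb* and *Papola*, the poly(A) polymerase, were marked without one. Among factors of mRNA stability that bind 3′ UTRs, 10 of 34 marked genes were hosts (29.4%), among them *Cpeb2* with 23078 bp at 3.36 and *Elavl1* with 12517 bp at 3.0. Among enzymes and readers of H3K36 methylation 9 of 24 were (37.5%, 18.8 to 59.4%), with *Ash1l*, an H3K36 methyltransferase, at 22497 bp and 3.69, and *Setmar* at 1447 bp and 2.85. *Setd2* was not among them.

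In PI3K/AKT/mTOR signalling, the pathway the study turns on, 17 of 43 marked genes were hosts (39.5%, 25 to 55.6%) of 28 peaks with a median fold enrichment of 3.13. The interval includes the 28.0% of all marked genes, and the marked genes of the list had a median length of 68664 bp, against 25221 bp for all. *Irs2*, an adaptor of the insulin receptor, carried 5232 bp at 3.20 and a reach of 1336 bp. *Phlpp1*, a phosphatase of AKT, carried 4659 bp at 3.16 and a reach of 751 bp. *Foxo3*, a transcription factor that AKT inhibits, had a peak of 5409 bp at 3.23 that passed the end by 284 bp and another of 1831 bp at 2.82. *Egfr*, *Insr* and *Lama4* were marked without a peak of the class. Of desmosome and hemidesmosome genes 7 of 20 were hosts (35%, 15.4 to 59.2%, against 28.0%), with *Dsc3*, a desmosomal cadherin, at 37002 bp and 3.87 and *Dsg2* with peaks of 12132 and 16392 bp at 3.78 and 3.22. None of 25 ubiquitously expressed genes was a host, at a median length of 5868 bp, although 19 of their ends lay in some peak.

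Markers matched the labelled cell type. All 12 listed markers of basal KCs had a peak, against 51.4% of all protein-coding genes, and 5 hosted one of the class (41.7%, 15.2 to 72.3%, against 28.0%), among them *Trp63*, *Lamb3* (20396 bp at 3.25) and *Itgb1* (8469 bp at 2.91, a reach of 4884 bp). Of 12 markers of differentiated KCs 9 had a peak and 5 were hosts (55.6%, 21.2 to 86.3%), with *Grhl1* at 24631 bp and 3.94 and *Tgm1*, the transglutaminase of the cornified envelope, at 1153 bp and 2.75. 1 of 10 fibroblast markers, 2 of 8 melanocyte markers, 2 of 10 immune markers and 1 of 8 endothelial markers had a peak, and of these *Mitf* alone, the melanocyte transcription factor, was a host, with 3 peaks at 2.74, 2.84 and 3.08, of which 2 rested on NMD transcripts alone.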

How the data were processed

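Peaks were read from the deposited table of the ChIP library. The authors aligned trimmed reads with Bowtie2 2.2.6 to GRCm38, used MACS2 2.1.1 to call peaks, and ChIPseeker (version not given) to place them. Deposited units are the fold enrichment (a ratio), −log10 P-values and q-values, and widths and distances in bp. The sources used here do not state whether fold enrichment is a maximum or a mean over the peak, whether the input was the control, or the sequencing depth, so no precision from depth can be stated.

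Hosts, ends and neighbours (within 5000 bp) were taken from GENCODE vM21 protein-coding genes, with an overlap of at least 1 bp. Shares carry Clopper-Pearson 95% intervals. The members, 12 gene lists and 31 families were chosen with earlier results of these data known. Named are the 8 highest, widest, farthest-reaching, best-spanning and farthest-credited peaks, the 8 hosts with most peaks, up to 4 hosts and 4 marked non-hosts per list, up to 3 hosts per family, and genes named by the study. Some of these are not reported here. Alternatives were other peak thresholds, merged peaks, other hosts, ends, overlaps and neighbour distances, and, chosen after seeing the data, protein-coding transcripts alone. Python 3.11.15, pandas 2.3.3, SciPy 1.17.1 and pysam 0.24.0 were used.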

Additional observations from a re-analysis of the deposited data

How the results depend on the processing

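Of 43 shares and medians recomputed, 22 stayed within the interval of the reported value, and 4 of 6 counts of hosts stayed within 1.5 times of it. At a fold enrichment of at least 3, the median width was 4774 bp, 41.2% of peaks covered the gene end with a median reach of 1323 bp, 19.1% of those with convergent neighbours touched both 3′ UTRs, 20.3% were NMD-only and 1958 genes were hosts. At a P below 1e-05, these were 6282 bp, 49.5%, 1428 bp, 23.1%, 12.4% and 643 genes, and 16.3% had a convergent neighbour. The share covering the end was 32.1% with the gene holding most body bases as host, 39.7% with at least 200 bp of 3′ UTR, 44% with transcript ends and 44.5% with protein-coding transcripts alone, an alternative chosen after seeing the data. The host was credited in 49.6% with 200 bp of 3′ UTR and 49.3% with protein-coding transcripts alone. A neighbour within 1000 bp gave 9.93% convergent, of which 22.8% touched both 3′ UTRs, and within 10000 bp 25.5% and 11.6%. Merging peaks across gaps of up to 1000 bp left 7 shares and medians within their intervals and gave 3154 hosts. Peaks hold only what passed the authors' threshold, so mark below it past a gene end is not seen, and depth, which limits reach, is unknown. No paired analysis was possible because there was 1 ChIP library.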
